A study of Mus musculus with 6 samples.

Results

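The HoxB cluster holds the homeobox genes Hoxb1 to Hoxb9 side by side on mouse chromosome 11, and their expression was followed here in neural progenitor cells (NPCs) taken from the tail and from the brachial level of mouse embryos. The members were the transcript clusters of the array (groups of probes that cover 1 transcribed locus) whose annotation gives exactly 1 of these 9 symbols. All 9 genes were found, in 10 of the 41345 transcript clusters, since Hoxb5 has a pair of them. Tail NPCs (3 arrays) and brachial NPCs (3 arrays) came from embryos that the sample titles place at stage E12.5. The sample descriptions and the study's methods give a whole embryonic day instead. The labels give no strain, genotype, sex or treatment. The study's methods describe the brachial tissue as the part between hindbrain and forelimbs and say that somites were removed from the tail as far as possible. Both groups had grown as neurospheres in serum-free N2 medium with bFGF and EGF at 20 ng/ml each, so the values are those of expanded cells and not of the tissue. Each value is an RMA signal on the log2 scale, in which the background is subtracted and the arrays are given 1 common distribution of probe signals. Neither the labels nor the methods say whether the 3 samples of a group were separate cultures, and p-values measure only the spread between these samples.

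Hox genes encode transcription factors that give cells their position along the head-to-tail axis. Within a cluster they lie in the order of that axis: low-numbered genes have their front limit of expression in the hindbrain, and high-numbered genes begin further back in the spinal cord. Retinoic acid, Wnt and FGF signals and the Cdx factors set these limits in the embryo, and TALE homeodomain proteins (Pbx, Meis, Pknox) bind DNA together with Hox proteins. In RefSeq the cluster runs from Hoxb9 to Hoxb1, with Hoxb13, the gene of the tail end, beyond Hoxb9 and Mir196a-1 between them.

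The promoter windows (250 bases before to 50 after a RefSeq start site, GRCm38.p6, plus strand) of Hoxb1, Hoxb4 and Hoxb8 are shown because these 3 members matched the promoter table. Hoxb1 stayed level on all arrays, and Hoxb4 and Hoxb8 were both low on 1. Capitals mark matches on either strand to TGATNNAT, a form of the shared Pbx and Hox site, TTTATG, a form of the Cdx site, and AGGTCA, the single repeat unit that retinoic acid receptors bind. Promoters of Hoxb2, Hoxb3, Hoxb5, Hoxb6, Hoxb7 and Hoxb9 are not shown here.
Hoxb1, chr11:96365508-96365807: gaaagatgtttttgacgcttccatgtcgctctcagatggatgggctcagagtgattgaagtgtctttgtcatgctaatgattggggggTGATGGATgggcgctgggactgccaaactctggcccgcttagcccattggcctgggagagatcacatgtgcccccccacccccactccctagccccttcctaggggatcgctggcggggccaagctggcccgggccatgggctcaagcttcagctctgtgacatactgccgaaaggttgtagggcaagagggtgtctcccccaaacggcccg
Hoxb4, chr11:96318017-96318316: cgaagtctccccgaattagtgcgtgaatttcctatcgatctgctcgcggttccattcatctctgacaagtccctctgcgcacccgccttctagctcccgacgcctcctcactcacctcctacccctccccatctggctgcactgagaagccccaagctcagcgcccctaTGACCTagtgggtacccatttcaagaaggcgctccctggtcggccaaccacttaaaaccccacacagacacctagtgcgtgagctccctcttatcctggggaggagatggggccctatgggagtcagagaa
Hoxb8, chr11:96281655-96281954: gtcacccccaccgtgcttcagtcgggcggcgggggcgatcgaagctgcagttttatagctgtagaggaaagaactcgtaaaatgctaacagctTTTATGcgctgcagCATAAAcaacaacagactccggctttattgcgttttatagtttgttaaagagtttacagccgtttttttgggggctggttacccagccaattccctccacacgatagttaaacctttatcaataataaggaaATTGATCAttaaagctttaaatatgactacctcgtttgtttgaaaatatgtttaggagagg
TGATNNAT was found 1 time in the Hoxb1 window, at -162 from the start site, and 1 time in the Hoxb8 window, at -11. TTTATG was found 2 times in the Hoxb8 window, and AGGTCA 1 time in the Hoxb4 window. Of 32841 RefSeq promoter windows of this length, 8.85% hold TGATNNAT, 11.9% hold TTTATG and 16.3% hold AGGTCA. The Hoxb8 window has a G+C content of 42.3%, against 59.3% for Hoxb1, 58% for Hoxb4 and a median of 52.7% over all windows. A match is a description of the letters only.

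Within the cluster 1 array, brachial replicate 2, was the lowest for 8 of the 9 genes (16.9% of all genes) and at least 1 log2 unit below every other array for 7 of them (0.302% of all genes). Hoxb9, Hoxb6, Hoxb7 and Hoxb5 were 2-fold or more higher in tail NPCs by their means (2.35% of all genes were). Without brachial replicate 2, 0 of the 9 genes were, where 2.14% of all genes still were. Hoxb5 counted among the 2-fold higher genes through transcript cluster 17268313 only. With the mean over the clusters of each gene, 3 members were 2-fold higher. Limma, a linear model with a spread shared over the 22180 genes, called 0 of the 9 genes higher and 0 lower at an adjusted p under 0.05, where it called 0.0631% of all genes higher and 0.0406% lower. Before adjustment 1 member, Hoxb5 by cluster 17268313, passed 0.05 upwards (5.43% of all genes) and 0 downwards (6.39%). With the mean over the clusters of each gene, 0 passed. The methods' t-test, named there for pairs of groups in general and not for the arrays, called 0 after adjustment. With brachial replicate 2 left out limma called 0 members higher (0.00902% of all genes) and 0 lower (0.00451%). Before adjustment 2 then passed upwards (Hoxb5, again by cluster 17268313, and Hoxb6, against 4.36% of all genes) and 1 downwards (Hoxb2, against 4.74%). Brachial replicate 2 was singled out for low values of these same genes, and the SE of Hoxb2 was 0.83 with it and 0.23 without it. Member p-values without this array, here and below, are therefore a description and no test, and the shares of all genes are no yardstick for them.

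The front genes of the cluster are those of the hindbrain and neck. Hoxb1, which marks a single segment of the hindbrain, had signals of 5.33, 5.26 and 4.82 in tail replicates 1 to 3, and of 5.17, 4.86 and 4.76 in brachial replicates 1 to 3. Its mean was under the median of all genes. It differed little on any array, the groups overlapped, and its log2 fold change, tail minus brachial, was 0.21 (standard error, SE, 0.19, limma adjusted p = 0.726). Hoxb2, a gene of the hindbrain segments, was at 6.48, 7.17 and 6.70 in tail NPCs and at 7.33, 4.21 and 7.43 in brachial NPCs. Brachial replicates 1 and 3 were thus above every tail array and replicate 2 was below every one. Its log2 fold change was 0.46 (SE 0.83, adjusted p = 0.880). It was -0.60 without brachial replicate 2 (unadjusted p = 0.0382, adjusted p = 0.517), with every tail array below both remaining brachial arrays. Under that setting 14% of all genes lay below in the same way. Hoxb3, also expressed from the hindbrain backwards, was at 6.73, 7.01 and 6.69 in tail NPCs, against 6.77, 4.39 and 6.30 in brachial NPCs (log2 fold change 0.99, SE 0.57, adjusted p = 0.552, and 0.28 without brachial replicate 2). Brachial replicate 1 lay within the tail values. Hoxb4, whose front limit is at the hindbrain and spinal cord border, was at 6.36, 6.48 and 6.12 in tail NPCs and at 6.29, 5.003 and 6.23 in brachial NPCs. Its values on 5 arrays lay within 0.361 of each other, and the log2 fold change of 0.48 was 0.06 without brachial replicate 2.

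Hoxb5, a gene of the neck and upper trunk, gave different patterns in its transcript clusters. Cluster 17268313 had the higher mean and stood for the gene in the fit. It was at 7.16, 7.42 and 7.28 in tail NPCs and at 6.37, 5.75 and 6.49 in brachial NPCs, and the lowest tail value was above the highest brachial value. Its log2 fold change was 1.08 (SE 0.21, 95% confidence interval 0.58 to 1.59, unadjusted p = 0.00146, adjusted p = 0.185), the smallest p of the members. Cluster 17255588 was at 6.48, 6.63 and 6.60 in tail NPCs and at 7.26, 5.44 and 6.71 in brachial NPCs, and its log2 fold change was 0.10 (SE 0.43, adjusted p = 0.966 among all transcript clusters). Without brachial replicate 2 the clusters pointed in opposite directions, with 0.86 for 17268313 and -0.41 for 17255588 (adjusted p = 0.224 and 0.711). The mean of both clusters had a log2 fold change of 0.59. RefSeq places a long noncoding RNA, Hoxb5os, over the same stretch as Hoxb5. The cluster numbers of the other members rise from 17255558 for Hoxb9 to 17255620 for Hoxb1, in the order of the genes. Number 17255588 falls between those of Hoxb6 and Hoxb4, and 17268313, used for the gene in the fit, lies outside this run. The annotation gives neither strand nor position of the probes, so whether either cluster reads Hoxb5os was not tested. The direction of Hoxb5 itself is uncertain.

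Hoxb6 to Hoxb9 are genes of the trunk. Hoxb6 was at 7.70, 8.04 and 8.12 in tail NPCs, against 7.55, 5.14 and 7.27 in brachial NPCs, and the groups did not overlap. Groups were separated in this direction for 6.88% of all genes and for 2 of the 9 members, Hoxb5 (by cluster 17268313 only) and Hoxb6. The log2 fold change of Hoxb6 was 1.30 (SE 0.60, adjusted p = 0.461), and 0.54 without brachial replicate 2 (SE 0.19, unadjusted p = 0.0275, adjusted p = 0.487). Hoxb7 was at 7.22, 8.001 and 7.78 in tail NPCs and at 7.28, 5.12 and 6.96 in brachial NPCs, so the lowest tail array was just under the highest brachial array. Its log2 fold change was 1.21 (SE 0.55, adjusted p = 0.456), against 0.55 without brachial replicate 2. Hoxb8, a gene of the trunk spinal cord, was at 7.07, 7.64 and 7.85 in tail NPCs and at 7.84, 5.53 and 7.48 in brachial NPCs. Its log2 fold change was 0.57 with all arrays (adjusted p = 0.761) and -0.14 with brachial replicate 2 left out (adjusted p = 0.918). Hoxb9, the last gene of the row before Hoxb13, had signals of 9.36, 9.62 and 8.998 in tail NPCs and of 9.30, 6.42 and 7.62 in brachial NPCs. The tail arrays were close together and the brachial arrays were widely spread, with replicate 1 among the tail values. The 3 tail arrays averaged 9.33 ± 0.31 and the 3 brachial arrays 7.78 ± 1.45 (SD). The means were 1.55 log2 units apart (SE 0.66, 95% confidence interval -0.02 to 3.12, adjusted p = 0.430).

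**Figure D1:**
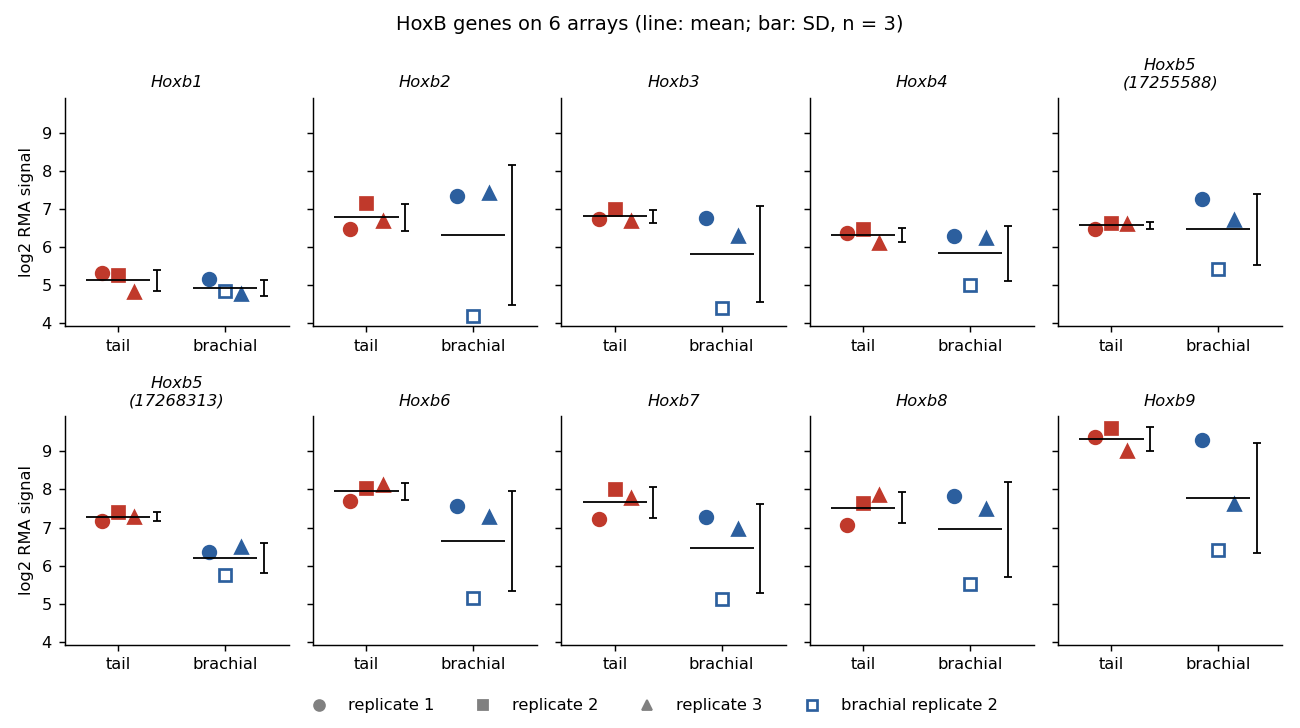
Log2 RMA signal of the 10 transcript clusters of Hoxb1 to Hoxb9 on the 3 tail arrays (red, left) and the 3 brachial arrays (blue, right), with the mean as a line and the SD as a bar. The open square is brachial replicate 2, the lowest point in 9 of the 10 panels, all but that of Hoxb1.

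**Figure D2:**
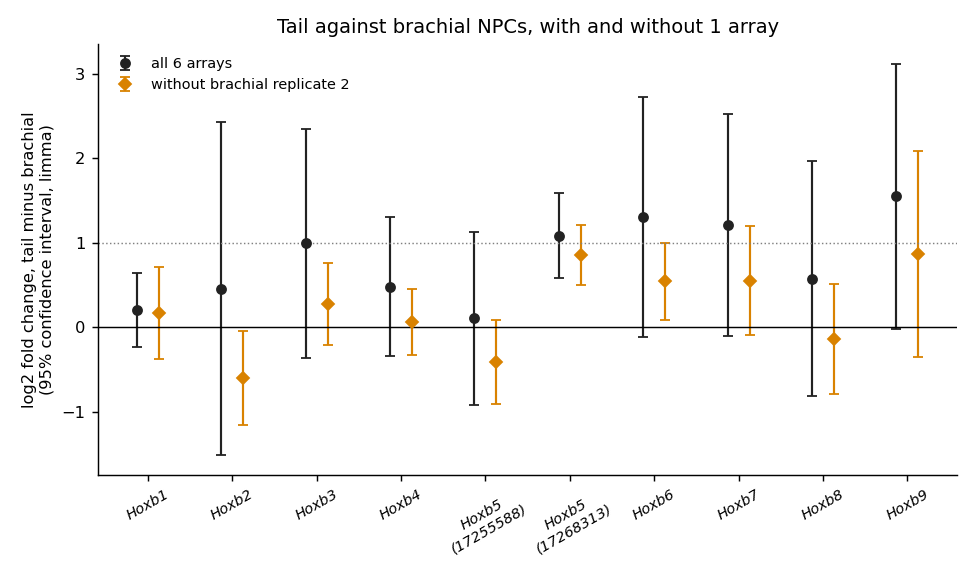
Log2 fold change, tail minus brachial, of each HoxB transcript cluster with its 95% confidence interval from limma, for all 6 arrays (black) and without brachial replicate 2 (orange, 3 tail and 2 brachial arrays); the dotted line is a 2-fold difference. All black points are above 0, and the orange points of Hoxb2, Hoxb8 and Hoxb5 cluster 17255588 are below 0.

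All 9 genes had a log2 fold change above 0. The median was 0.99 over the 9 genes, against -0.03 over all genes tested. It was 1.26 for Hoxb6 to Hoxb9 and 0.48 for Hoxb1 to Hoxb5. A 2-fold higher mean in tail NPCs was reached by 4 members (Hoxb5, by cluster 17268313 only, Hoxb6, Hoxb7 and Hoxb9) and by 2.35% of all genes. A 2-fold lower mean was reached by 0 members and 1.74% of all genes. Without brachial replicate 2 the median was 0.28 over the 9 genes, 0.55 for Hoxb6 to Hoxb9 and 0.17 for Hoxb1 to Hoxb5, and 7 genes were above 0 and 2 below. Hoxb9 had a log2 fold change of 0.87 without brachial replicate 2 (adjusted p = 0.649) and of 2.31 without brachial replicate 1 (adjusted p = 0.0906), the smallest adjusted p of any member in any setting run. The difference between the front and the rear genes of the row was not tested.

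The spread within a group was unequal. The SD of the members lay between 0.08 and 0.41 over the 3 tail arrays and between 0.21 and 1.83 over the 3 brachial arrays, lowest for Hoxb5 cluster 17255588 in tail NPCs and highest for Hoxb2 in brachial NPCs. The mean of the 9 genes was 7.05, 7.40 and 7.15 in tail replicates 1 to 3, and 7.10, 5.16 and 6.73 in brachial replicates 1 to 3. Brachial replicate 1 was therefore within the range of the tail arrays, replicate 3 a little below it and replicate 2 far below. Pairs of members followed each other over the 6 arrays with a median Pearson r of 0.88 (36 pairs, 0.21 to 0.99). Without brachial replicate 2 the median r was 0.30 (5 arrays, -0.66 to 0.96). These correlations are a description, since the members share arrays and normalization.

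Brachial replicate 2 was the lowest of the 6 arrays for 8 of the 9 genes, and for 16.9% of all genes. For 7 of the 9 it was at least 1 log2 unit below each of the other 5 arrays, where 0.302% of all genes were. The exceptions were Hoxb1 and Hoxb5. In Hoxb5 cluster 17255588, which did not stand for the gene, its difference from the lowest other array was -1.04. Set against the mean of brachial replicates 1 and 3, Hoxb2 fell furthest short, with a difference of -3.18. Hoxb6, Hoxb3, Hoxb8, Hoxb9 and Hoxb7 followed with -2.27, -2.14, -2.13, -2.05 and -1.99. Hoxb4 was at -1.25, Hoxb5 at -0.68 (-1.55 for cluster 17255588) and Hoxb1 at -0.11. The median difference was -2.05 over the members and 0.02 over all genes tested. These values are a description of 1 array and carry no test.

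**Figure D3:**
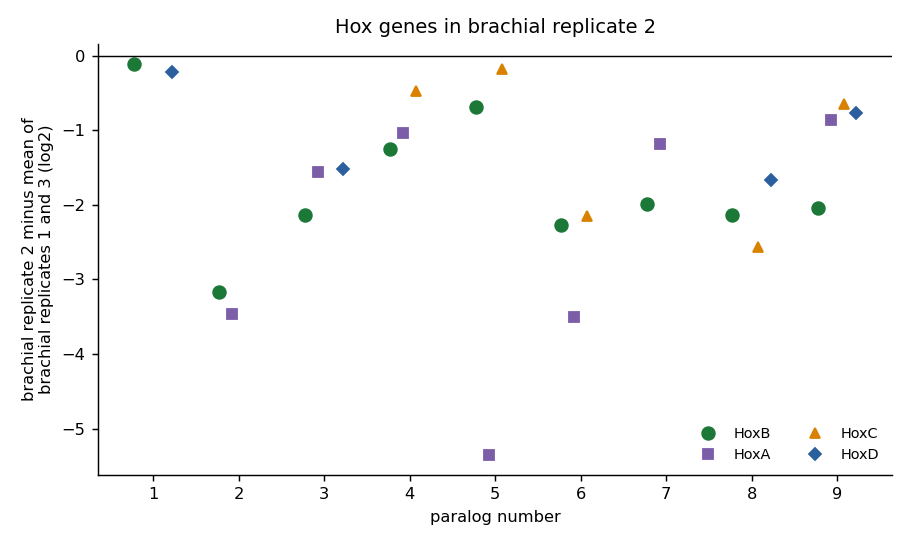
Difference between brachial replicate 2 and the mean of brachial replicates 1 and 3 (log2, vertical axis) by paralog number (horizontal axis) for the HoxB genes (green circles) and the measured genes of the same numbers in the HoxA, HoxC and HoxD clusters. All points are below 0; among HoxB genes the deepest is Hoxb2 at -3.18 and the nearest to 0 is Hoxb1 at -0.11.

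The low values were shared with the other Hox clusters. Of 16 measured HoxA, HoxC and HoxD genes with the same paralog numbers, 11 were lowest in brachial replicate 2 (16.9% of all genes). In 10 of the 16, not all of them among these 11, it was below both other brachial arrays by 1 or more, where 0.744% of all genes and 7 of the 9 HoxB genes were. Hoxa5 was at 2.93 there, against 7.75 and 8.82 in brachial replicates 1 and 3. In the comparison of tail with brachial NPCs their median log2 fold change was -0.14, and -0.42 without brachial replicate 2. Limma called 0 of the 16, and before adjustment 3 passed 0.05 upwards and 1 downwards, against 5.43% and 6.39% of all genes. Hoxa9, Hoxc9 and Hoxd9, which share the number of Hoxb9, were 1.56, 1.44 and 0.96 log2 units higher in tail NPCs by their means. Their limma adjusted p was 0.201, 0.319 and 0.344. Whether the HoxB cluster differs from the others was not tested.

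Markers of other regions and cell types were read on the same arrays. Of 19 measured forebrain genes 5 were highest in brachial replicate 2, and 2 exceeded every other array there by 1 or more. The share of all genes that did so was not counted, so whether these counts are unusual is not known. Emx2, a factor of the dorsal forebrain, was at 3.97, 4.13 and 4.71 in tail NPCs and at 4.43, 7.36 and 4.83 in brachial NPCs. Otx1, a factor of forebrain and midbrain, was at 5.68, 5.98 and 5.80 in tail NPCs and at 5.92, 7.61 and 6.25 in brachial NPCs. Both thus stood out upwards on the array on which the HoxB genes stood out downwards. Lhx2, Dmrta2 and Tbr1 were also highest in brachial replicate 2, at 7.59, 6.47 and 3.05. Their next highest values were 7.15 (tail replicate 1), 5.78 (brachial replicate 3) and 3.04 (tail replicate 1). Of the 19 genes 1 was lowest in brachial replicate 2. The mean over the forebrain list was 4.95, 4.82 and 4.63 in tail replicates 1 to 3, and 4.48, 4.91 and 4.68 in brachial replicates 1 to 3. Otx2, Six3 and Emx1, further forebrain factors, did not stand out upwards in brachial replicate 2, where they were at 4.13, 4.53 and 4.31, against 4.46, 4.64 and 4.65 in brachial replicate 3.

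**Figure D4:**
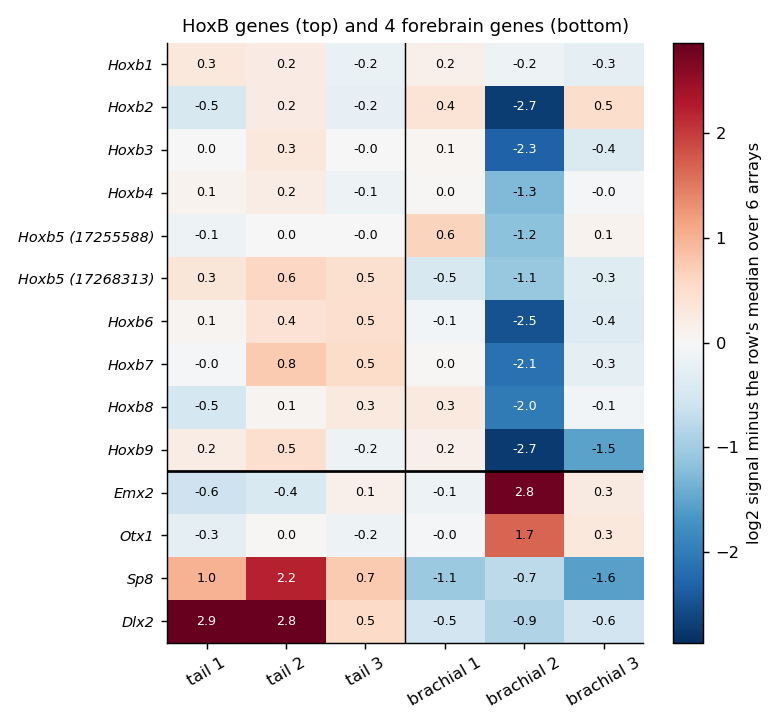
Log2 RMA signal of each row minus its median over the 6 arrays (colour and printed number) for the 10 HoxB transcript clusters (above the black line) and the 4 forebrain genes whose value in brachial replicate 2 was furthest from the median of the other 5 arrays (below it), with tail arrays left and brachial arrays right. In brachial replicate 2 the HoxB rows are negative while Emx2 and Otx1 are positive, and Sp8 and Dlx2 are high in tail NPCs.

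Genes of somites and mesenchyme had a mean of 8.49, 8.17 and 7.40 in tail replicates 1 to 3, and of 7.40, 5.22 and 5.21 in brachial replicates 1 to 3. Of these 20 measured genes limma called 0, and 13 were higher at an unadjusted p under 0.05, against 5.43% of all genes. Their level was about equal in brachial replicates 2 and 3, whereas the mean of the HoxB genes was 5.16 in replicate 2 and 6.73 in replicate 3. Decorin (Dcn), with the largest log2 fold change of that list (5.19), was at 11.3, 11.2 and 10.4 in tail NPCs and at 9.94, 3.71 and 3.68 in brachial NPCs. The 12 neural progenitor genes had a mean of 8.71, 9.03 and 9.19 in tail replicates 1 to 3, and of 9.46, 9.25 and 9.26 in brachial replicates 1 to 3, so brachial replicate 2 did not stand apart. The 12 neuronal genes averaged 6.21, 6.45 and 6.34 in tail NPCs and 7.08, 6.45 and 6.79 in brachial NPCs. The 11 measured midbrain and hindbrain genes averaged 5.27 to 5.50 in tail NPCs and 5.20 to 5.32 in brachial NPCs, and the 10 neural crest genes averaged 5.77 to 6.38 and 5.18 to 6.51. The part of these markers in the HoxB values was not tested, and fewer cells of a type cannot be told apart from less RNA per cell.

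Outside the Hox families, the genes most like the mean of the 9 members over the 6 arrays, among 2611 genes with an SD of at least 0.5, were Magee2, Zfp781, 2610203C20Rik, Hmga2, Fbxl7 and Mir181b-1 (Pearson r 0.99 to 0.97). Hmga2, which encodes a chromatin protein of embryonic and stem cells, was at 9.18, 9.17 and 8.82 in tail NPCs and at 9.25, 6.76 and 8.39 in brachial NPCs. Mtmr11, 9630013A20Rik, Cyp2j13, Emx2os, Mfap3l and Upp1 ran the other way (r -0.99 in each). Emx2os, a noncoding RNA beside Emx2, was at 3.88, 3.59 and 3.87 in tail NPCs and at 4.05, 5.77 and 4.09 in brachial NPCs. Without brachial replicate 2 the r of the first group lay between 0.58 and 0.88 over 5 arrays, and that of the second between -0.98 and -0.86. All 12 share the deviation of that 1 array.

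TALE proteins are the partners of Hox proteins on DNA. Of 8 measured TALE cofactors limma called 0, and their median log2 fold change was -0.09. Before adjustment 0 passed 0.05 upwards and 1 downwards, against 5.43% and 6.39% of all genes. Meis1 was at 8.59, 8.65 and 8.65 in tail NPCs and at 9.83, 8.29 and 9.59 in brachial NPCs (log2 fold change -0.61, adjusted p = 0.590, and -1.08, adjusted p = 0.133, without brachial replicate 2). Brachial replicate 2 was its lowest array, as for 5 of the 8 cofactors (16.9% of all genes). Meis2 was instead highest in brachial replicate 2, at 9.93. Pbx3 had a log2 fold change of -0.41 (adjusted p = 0.382). Of 13 measured regulators of Hox genes 0 were called (before adjustment 4 passed 0.05, all upwards, against 5.43% of all genes). Egr2, a hindbrain factor that switches on Hoxb2, was at 10.17, 9.57 and 8.44 in tail NPCs and at 7.70, 8.30 and 6.47 in brachial NPCs (log2 fold change 1.90, adjusted p = 0.310). Its highest brachial array was replicate 2. The means of the retinoic acid receptor gene Rarg differed by 0.76 (adjusted p = 0.415) and those of the growth factor gene Gdf11 by 0.46 (adjusted p = 0.285). For Cdx1, Cdx2 and Cdx4 the log2 fold change was -0.30, 0.08 and -0.03. Of 13 measured Polycomb genes, which keep Hox genes silent, 0 were called. Before adjustment 1 passed 0.05 upwards and 1 downwards, against 5.43% and 6.39% of all genes. Pcgf2 was at 6.70, 6.28 and 5.91 in tail NPCs and at 6.34, 4.61 and 5.33 in brachial NPCs (log2 fold change 0.87, adjusted p = 0.491). Of the 13, 3 were lowest in brachial replicate 2, against 16.9% of all genes. Phc2 had a log2 fold change of 0.62 (adjusted p = 0.293).

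Beyond Hoxb9 the groups lay further apart. Mir196a-1, a microRNA gene next to Hoxb9, had signals of 6.55, 7.17 and 7.13 in tail NPCs and of 4.07, 3.24 and 4.03 in brachial NPCs, and rose in tail NPCs by 3.17 log2 units (SE 0.28, limma adjusted p = 0.0232). The noncoding RNA gene Gm53 and Hoxb13 also rose, Gm53 by 3.17 and Hoxb13 by 3.72 log2 units (adjusted p = 0.0163 for both). Without brachial replicate 2 these log2 fold changes were 2.90, 3.05 and 3.63 and passed the threshold no longer (adjusted p = 0.0645, 0.0645 and 0.0712). None of the 3 passed it without tail replicate 1, tail replicate 2 or brachial replicate 3 either, nor by the methods' t-test (adjusted p = 0.465 for each). Over the alternatives their log2 fold changes lay between 2.90 and 3.94. The mature product of Mir196a-1 is shown because in the mouse it is known to cut Hoxb8 mRNA. It lies at chr11:96265187-96265208 (GRCm38.p6, plus strand, RefSeq), and its seed, bases 2 to 8, is in capitals.
miR-196a-5p: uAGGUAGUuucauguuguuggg
The array cluster reads transcripts of the locus, and the mature microRNA was not measured. Brachial replicate 2 was still the lowest array for Mir196a-1 and, at 4.90 against 4.92 in brachial replicate 3, for Gm53. Hoxb13 was lowest in brachial replicate 3, at 3.54 against 3.63 in brachial replicate 2. On the other side of the cluster, Skap1, beyond Hoxb1, had signals of 4.95, 4.78 and 5.20 in tail NPCs and of 5.05, 5.11 and 4.98 in brachial NPCs, and showed no gap in brachial replicate 2.

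A pair of further transcript clusters carry a HoxB symbol together with another gene and were left out by the rule. The cluster shared by Hoxb3 and Hoxb2 was at 6.73, 6.48 and 6.72 in tail NPCs and at 7.40, 4.90 and 6.94 in brachial NPCs, which is the shape of Hoxb2. The cluster shared by Mir10a and Hoxb4 lay between 2.04 and 3.36 in tail NPCs and between 1.98 and 2.23 in brachial NPCs.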

How the data were processed

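Total RNA from 3 tail and 3 brachial NPC samples was read on whole-transcript expression arrays, 1 for each sample. The deposited log2 values were made by the authors with gene-level RMA in Affymetrix Expression Console (background subtraction, quantile normalization, summary over probes); versions are not given in the sources used here. A human array is named in the methods, but the probe annotation used here is of mouse genes. Medians of the arrays lay between 4.82 and 4.91, and 0 columns belonged to other samples. Clusters with 1 symbol (23521) gave 22180 genes; of several clusters of a gene, the one with the highest mean was taken.

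Tail and brachial NPCs were compared with limma 3.58.1 in R 4.3.3 (lmFit, eBayes, no block, Benjamini-Hochberg over all genes, called under 0.05); the step was tested on simulated data. The number of arrays limits the precision. Members, lists and the rule for named genes (all members, the 6 genes most and least like their mean, leading genes of each list, and marker genes that deviate in brachial replicate 2) were chosen with earlier results of these data known. Some genes fall outside that rule and were named after their values were seen. They are Otx2, Six3, Emx1, Lhx2, Dmrta2, Tbr1, Meis2, Gdf11, the Cdx genes, Hoxa5, Hoxd9 and Skap1. Alternatives were a replicate block, array weights, a trended and robust eBayes step, the methods' t-test (named there for comparisons of a pair of groups in general; the arrays were compared by fold change), no genes with a mean under the median of all genes (dim), the mean over clusters, all clusters tested, repeated quantile normalization, housekeeping centring and each array left out. Promoter and microRNA sequences and gene order came from RefSeq (GRCm38.p6), and plots were drawn with Python 3.11.15.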

Additional observations from a re-analysis of the deposited data

How the results depend on the processing

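In each of the 15 alternatives, by limma in all but the methods' t-test, 0 HoxB genes were called, with adjusted p between 0.0906 and 0.970. The direction of a member turned in 2 of 134 cases, both without brachial replicate 2: Hoxb2 lay between -0.60 and 1.01 and Hoxb8 between -0.14 and 1.02 when 1 array was left out. The cause was not tested. Members with a 2-fold higher mean numbered 0 (without brachial replicate 2) to 6 when 1 array was left out, and 3 or 4 in the other alternatives. With 1 array left out, the median log2 fold change lay between 0.17 and 1.01 for Hoxb1 to Hoxb5 and between 0.55 and 1.69 for Hoxb6 to Hoxb9, lowest without brachial replicate 2. Hoxb1 was among the dim genes and has no value where these were left out. Over all genes 14 were called higher and 9 lower. With the replicate number as a block 123 and 71 were called, by the methods' t-test 0 and 0 (816 and 1050 before adjustment), and over all transcript clusters 5 and 1. Array weights gave 19 lower. With 1 array left out the counts lay between 0 and 138 higher and between 0 and 128 lower (2 and 1 without brachial replicate 2). Same-numbered samples are not said to be pairs, and whether they are is not known. Their deviations from the group means correlated at 0.24, -0.12 and 0.21, and those of differently numbered samples between -0.33 and 0.15. The block, under which the smallest adjusted p of a member was 0.118, called no member.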
